A study of Mus musculus with 9 samples.

Results

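Neutrophils package their antimicrobial proteins into granules that are filled one after another while the cell matures in the bone marrow. Primary (azurophil) granules are made first, at the promyelocyte stage, secondary (specific) granules at the myelocyte and metamyelocyte stages, and tertiary (gelatinase) granules later still, so the mRNAs of their contents mark successive stages of the lineage. C/EBPε, encoded by Cebpe, is a transcription factor known to be required for the secondary granule programme. The granule genes examined here were 10 genes of secondary and tertiary granules and of late neutrophil maturation, listed by name: Ltf, Ngp, Camp, Lcn2, Olfm4, Mmp8, Mmp9, Cd177, Itgb2l and Retnlg. They were 10 of the 23284 gene symbols in the expression tables, and all 10 passed the filter on low values in both comparisons.

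Myeloid-derived suppressor cells (MDSCs) are immature myeloid cells that accumulate in tumour-bearing hosts, as a neutrophil-like (PMN-MDSC) and a monocyte-like (Mo-MDSC) subset. They had been purified with magnetic beads from spleens 3 weeks after injection of SCT cells, a spindle cell tumour line derived from a p16-knockout mouse, with PMN-MDSCs taken as Ly6G-positive and Mo-MDSCs as Ly6G-negative, Gr-1-positive cells. The 9 samples fell into 3 groups of n = 3: PMN-MDSCs of wild-type (WT) C57BL/6J mice, Mo-MDSCs of WT C57BL/6J mice, and Mo-MDSCs of p16/p21-DKO mice (C57BL/6 by the labels), which lack both cell-cycle inhibitors. All mice carried the tumour, and PMN-MDSCs of DKO mice were not analysed here. The labels give an age of 3 weeks, whereas the study's methods describe older mice sampled at that interval after inoculation. The labels do not say whether the replicates of a group were separate mice, so the p-values measure the spread between these samples.

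Expression was given as FPKM, fragments scaled to transcript length and library. Read counts were not used here, and the relative depth, taken from the steps between low values, ranged from 0.809 to 1.31 of that of WT Mo-MDSC replicate 1. The cell types were checked against their markers. All 13 neutrophil genes measured outside the granule lists had lower levels in Mo-MDSCs of WT mice (adjusted p-value below 0.05 for each). At that threshold 9 of 10 monocyte genes had higher levels, among them Ccr2 (281 to 362 against 2.36 to 2.51 FPKM). Of all genes tested, 20.6% were lower and 18.5% higher. The remaining monocyte gene, Csf1r, did not pass, at means of 797 FPKM in Mo-MDSCs and 753 FPKM in PMN-MDSCs. Ly6g, the gene of the sorting antigen, was not analysed here. B-cell and macrophage transcripts were present in every sample, with Cd79a between 353 and 588 FPKM. Cdkn2a, the p16 locus, was at 0.718, 0.772 and 0.432 FPKM in WT and 0.258, 0.586 and 0 FPKM in DKO Mo-MDSCs, and Cdkn1a, which encodes p21, at 8.18, 6.46 and 8.04 and at 5.55, 8.52 and 6.00 FPKM. The groups overlapped for both. A value per gene also counts reads from exons that a deletion leaves in place, and the deleted exons are not given in the sources used here, so these values do not check the genotype.

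Several of the granule genes share a stretch of chromosome 9. In GENCODE M21 (GRCm38), Camp lies at chr9:109847379-109849617 on the minus strand, Ngp at chr9:110419747-110423012 and Ltf at chr9:111019271-111042767, both on the plus strand. Mmp8 lies on the same chromosome, in a cluster of matrix metalloproteinase genes, at chr9:7558456-7568485 on the plus strand. Lcn2 (chr2:32384633-32388252, minus) and Mmp9 (chr2:164940780-164955850, plus) are on chromosome 2, and Itgb2l (chr16:96422288-96443619, minus) and Retnlg (chr16:48872621-48874496, plus) on chromosome 16. Cd177 is at chr7:24743983-24760311 on the minus strand and Olfm4 at chr14:79984081-80023139 on the plus strand.

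Promoter sequences were read for 9 of the 10 genes from RefSeq (GRCm38.p6), as 300 bases running from 250 before to 50 after the start of transcription, with Mmp9 missing from the table. The motif TTGCNNAA, a core sequence bound by C/EBP proteins, was searched on both strands. It was found in 5 of these 9 promoters, those of Lcn2, Mmp8, Ngp, Ltf and Retnlg, and in 10.8% of all 32851 promoters of that length. The first base of the match was at position -216 in Lcn2, -19 in Mmp8, -138 and -11 in Ngp, -75 in Ltf and -246 in Retnlg, counted back from the start. The promoters of Camp, Cd177, Itgb2l and Olfm4 held no such match in this window. Matches and positions hold for the RefSeq start only. The GENCODE gene begins 16221 bases upstream of it for Olfm4, 513 for Lcn2 and 161 for Camp, and sequence around those starts was not searched as a promoter. Upstream stretches of 3 genes on the plus strand of chromosome 9 are shown, of Ngp and Ltf, whose levels ran together across the samples, and of Mmp8, which alone was higher in DKO than in WT Mo-MDSCs, with the motif on either strand in capitals. They run from 150 bases before the RefSeq start to the first start of a transcript in either annotation, at chr9:110419658-110419746 for Ngp, chr9:111019142-111019270 for Ltf and chr9:7558279-7558428 for Mmp8.
Ngp: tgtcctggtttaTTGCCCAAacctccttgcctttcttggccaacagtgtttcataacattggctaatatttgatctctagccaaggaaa
Ltf: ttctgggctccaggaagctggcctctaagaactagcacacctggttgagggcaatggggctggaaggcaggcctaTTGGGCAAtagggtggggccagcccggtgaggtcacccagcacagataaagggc
Mmp8: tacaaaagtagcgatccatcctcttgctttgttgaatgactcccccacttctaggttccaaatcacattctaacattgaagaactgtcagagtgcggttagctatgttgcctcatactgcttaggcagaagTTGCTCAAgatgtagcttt
A match is a description of the letters, not of a bound site, and genes with and without it were found both among the genes called and among those not called in the first comparison.

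The first comparison asked how far the granule genes separate the neutrophil-like from the monocyte-like subset. In WT mice, Mmp9, Retnlg, Mmp8 and Olfm4 were far lower in Mo-MDSCs than in PMN-MDSCs, at 1.96%, 2.07%, 13.5% and 22.3% of the PMN-MDSC mean. The other 6 genes were much closer between the subsets, from 47.5% for Lcn2 to 74.5% for Camp. Differences were tested on log2(FPKM + 0.1) with limma, and p-values were adjusted by the Benjamini-Hochberg method over all 11491 genes tested. Of the 10 genes 4 were lower with an adjusted p-value below 0.05, against 20.6% of all genes, and the samples of the groups did not overlap for the same 4, against 26.4% of all genes. The median log2 difference of the 10 genes was -0.93, against 0.01 for all genes tested. In bulk samples, fewer cells of a type and less RNA per cell cannot be told apart.

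The replicate numbers carried much of the remaining spread. Within each of the 3 numbers, all 10 genes were lower in Mo-MDSCs than in the PMN-MDSCs of the same number. The share of all genes with this property was not counted, and it is at least the 26.4% that were lower without overlap. With the replicate number as a block, 10 of 10 genes were lower with an adjusted p-value below 0.05 from limma, against 29.7% of all genes. The labels do not say that samples of the same number belong together. The block was chosen from correlations in these same data, so all p-values with the block depend on that choice. The size of each difference was the same in both fits, and only its error changed. The smaller differences depended on the kind of scaling. Quantile normalization, which was not combined with the block, moved Camp from -0.40 to -0.05. Median scaling left it at -0.40. The block values are given beside each gene whose call they changed.

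**Figure D1:**
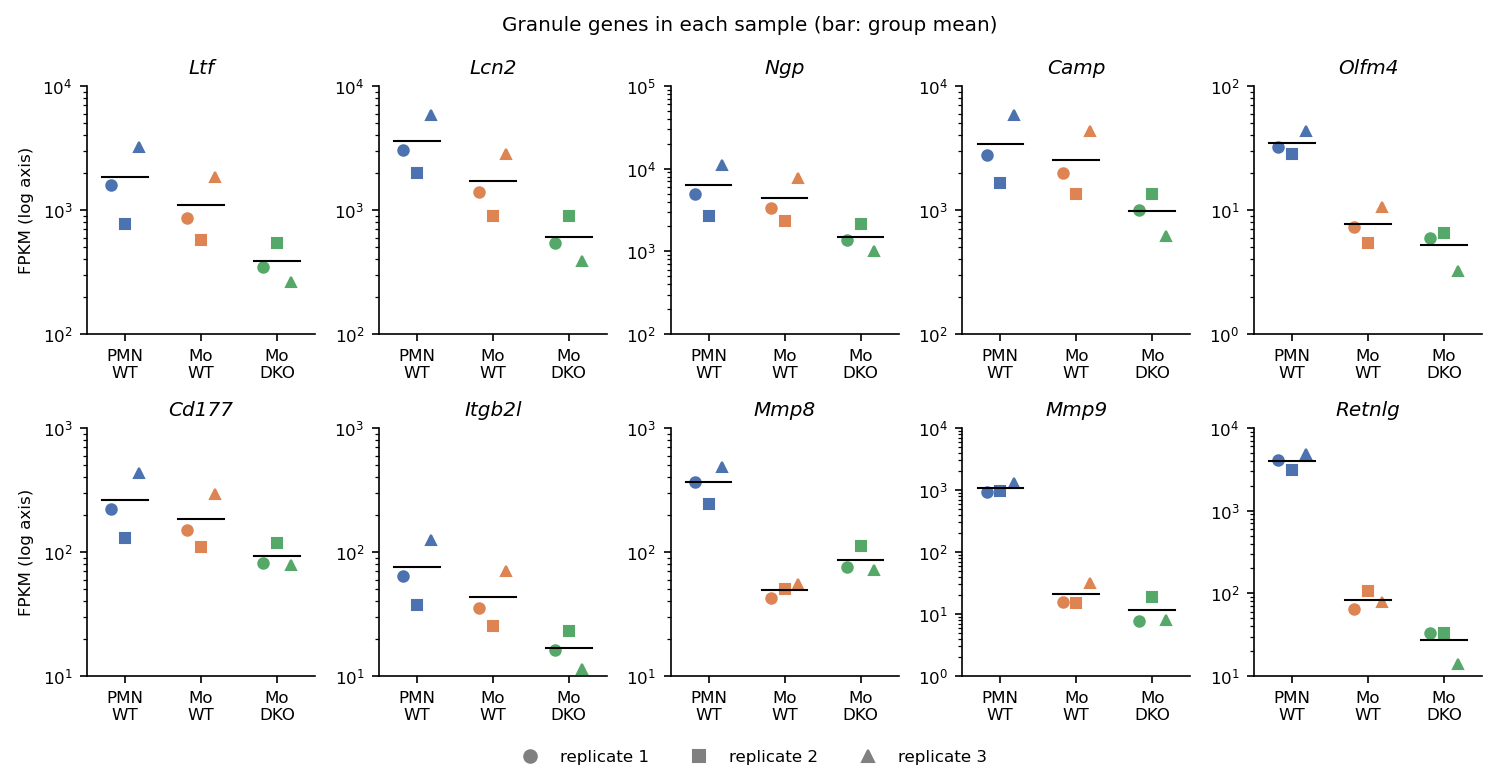
Level of each of the 10 granule genes in the 9 samples, in FPKM on a log axis, with the replicates as points of 3 shapes and the group means as bars. Mmp8, Mmp9, Retnlg and Olfm4 separate PMN-MDSCs from Mo-MDSCs, the other 6 genes overlap between the WT subsets, and replicate 3 is highest for all 10 genes in PMN-MDSCs.

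Among the iron-binding proteins of the granule matrix, Ltf encodes lactoferrin, which withholds iron from bacteria. Ltf was at 1582, 776 and 3205 FPKM in PMN-MDSC replicates 1 to 3 and at 865, 575 and 1856 FPKM in WT Mo-MDSCs. The ranges overlapped, with replicate 3 highest and replicate 2 lowest in both subsets. The means were 1854 ± 1237 FPKM (SD, n = 3) and 1099 ± 672 FPKM (SD, n = 3), a log2 difference of -0.70 (standard error 0.585, adjusted p = 0.383, and 0.00163 with the replicate block). Lcn2 encodes lipocalin 2, which captures the siderophores by which bacteria take up iron. It was at 3056, 1994 and 5783 FPKM in PMN-MDSCs and at 1395, 899 and 2851 FPKM in Mo-MDSCs. Its order of replicates was that of Ltf, and Mo-MDSC replicate 3 was above PMN-MDSC replicate 2. The log2 difference was -1.10 (standard error 0.504, adjusted p = 0.126, and 6.81e-05 with the replicate block). Without WT Mo-MDSC replicate 3 it was -1.55 (adjusted p = 0.0435, limma), without WT Mo-MDSC replicate 2 it was -0.72 and without PMN-MDSC replicate 3 it was -0.69 (adjusted p = 0.307 and 0.322). The difference of Ltf was -0.19 without PMN-MDSC replicate 3.

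Ngp and Camp encode a cystatin-fold granule protein and the cathelicidin precursor of an antimicrobial peptide, which are related to each other. Ngp was the highest of the 10 genes by mean FPKM in each group. It was at 4997, 2699 and 11179 FPKM in PMN-MDSCs and at 3337, 2349 and 7617 FPKM in WT Mo-MDSCs. Camp was at 2752, 1640 and 5888 FPKM in PMN-MDSCs and at 1996, 1341 and 4319 FPKM in WT Mo-MDSCs. For both genes the ranges overlapped over most of their length. The log2 difference of Ngp was -0.45 (standard error 0.595, adjusted p = 0.587, and 0.0128 with the replicate block from limma) and that of Camp -0.40 (standard error 0.557, adjusted p = 0.602, and 0.00484 with the block). Without PMN-MDSC replicate 3 both were slightly higher in Mo-MDSCs, each by 0.09 on the log2 scale.

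The surface proteins followed the same pattern. Cd177 encodes a surface glycoprotein that is also held in secondary granules, and it was at 224, 131 and 434 FPKM in PMN-MDSCs and at 152, 109 and 294 FPKM in WT Mo-MDSCs. Itgb2l encodes a chain related to the beta-2 integrins, and was at 63.5, 37.4 and 126 FPKM and at 35.2, 25.3 and 70.3 FPKM. In both genes replicate 3 was highest and replicate 2 lowest in either subset, and the groups overlapped. The log2 differences were -0.46 for Cd177 (standard error 0.495, adjusted p = 0.496, and 0.00288 with the replicate block from limma) and -0.75 for Itgb2l (standard error 0.506, adjusted p = 0.280, and 3.47e-04 with the block). Without PMN-MDSC replicate 3 they were -0.01 and -0.29.

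The proteases were lower in Mo-MDSCs. Mmp9 encodes gelatinase B, the enzyme by which tertiary granules are known, and was at 929, 965 and 1293 FPKM in PMN-MDSCs and at 15.5, 15.3 and 31.9 FPKM in WT Mo-MDSCs. Every PMN-MDSC sample was far above every Mo-MDSC sample. The means were 1063 ± 201 FPKM (SD, n = 3) and 20.9 ± 9.51 FPKM (SD, n = 3), and the log2 difference was -5.74 (standard error 0.292, adjusted p = 2.22e-05, limma). Mmp8 encodes neutrophil collagenase, a secondary granule enzyme, and was at 366, 242 and 486 FPKM in PMN-MDSCs and at 42.3, 50.2 and 55.2 FPKM in WT Mo-MDSCs. The groups did not overlap, and the log2 difference was -2.84 (standard error 0.244, adjusted p = 1.69e-04, limma).

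Retnlg, a secreted resistin-like protein of mature neutrophils, was at 4103, 3115 and 4907 FPKM in PMN-MDSCs and at 64.6, 107 and 79.2 FPKM in WT Mo-MDSCs. The log2 difference was -5.60 (standard error 0.227, adjusted p = 9.75e-06, limma), with no overlap. Olfm4, a matrix glycoprotein that only a subset of neutrophils carries, was the lowest of the 10 genes in PMN-MDSCs, at 32.3, 28.3 and 43.3 FPKM, and was at 7.34, 5.40 and 10.5 FPKM in WT Mo-MDSCs. It was lower in every Mo-MDSC sample, by a log2 difference of -2.18 (standard error 0.255, adjusted p = 7.17e-04, limma). The 4 genes called without the block thus included both proteases, and in both subsets the ratio of their highest to their lowest sample was smaller than in the other 6.

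**Figure D2:**
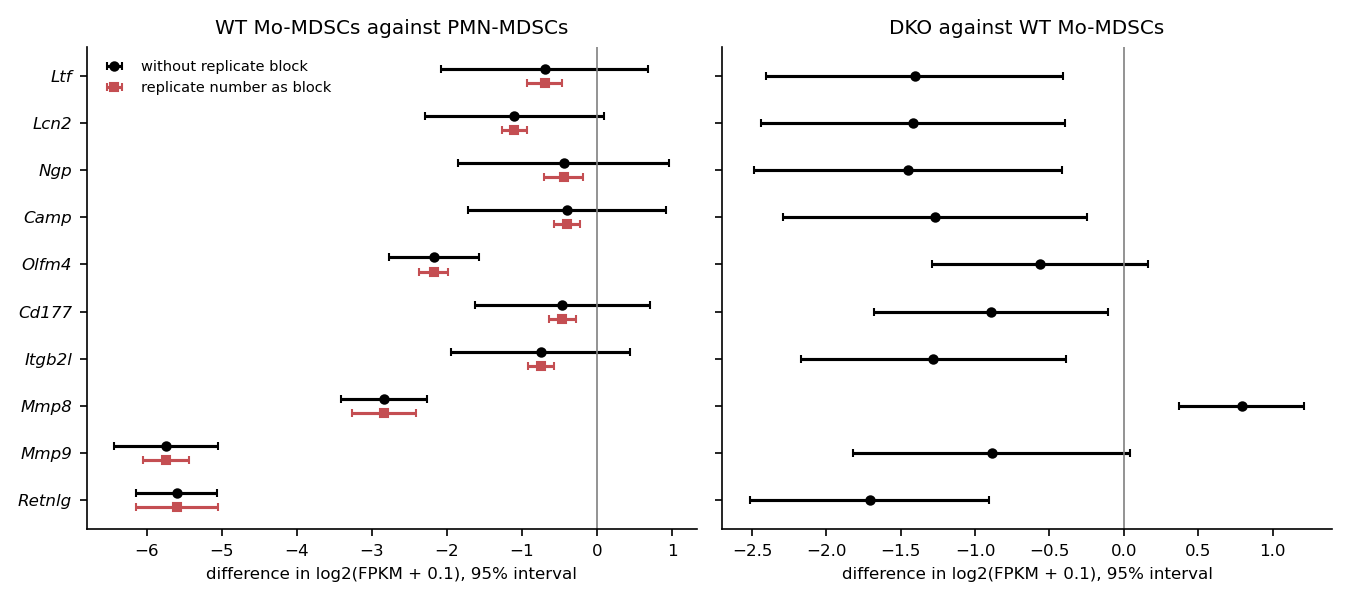
Difference in log2(FPKM + 0.1) of each granule gene with its 95% interval, for WT Mo-MDSCs against PMN-MDSCs with and without the replicate block (left) and for DKO against WT Mo-MDSCs (right). The block leaves the differences where they are and narrows most intervals on the left, from a standard error of 0.585 to 0.0957 for Ltf, and on the right Mmp8 stands alone above 0.

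Because the genes shared much of their spread, ratios between them within a sample were compared, for pairs chosen with the values known. The Mmp9 level was 40.4% to 124% of that of Ltf in PMN-MDSCs, and 1.72% to 2.65% in WT Mo-MDSCs, a log2 difference of the ratio of -5.05. Retnlg was at 43.9% to 115% of Ngp in PMN-MDSCs and at 1.04% to 4.57% in WT Mo-MDSCs, a log2 difference of -5.16. The 2 subsets did not overlap in either ratio. The exact permutation test (two-sided) gave p = 0.1 for each, the smallest that 3 samples against 3 can give. It took the samples as unpaired and did not use the replicate numbers. The ratio of Ngp to Camp, in contrast, differed by -0.04 on the log2 scale (exact permutation p = 0.5). The ratios of Ltf to Ngp and of Lcn2 to Ltf differed by -0.25 and -0.40 without overlap (exact permutation p = 0.1 for each). The ratios compared among Ltf, Ngp, Camp and Lcn2 thus differed far less between the subsets than those of Mmp9 and Retnlg to them. This does not hold for every secondary granule gene. The ratio of Mmp8 to Ltf differed by -2.14 on the log2 scale, without overlap (exact permutation p = 0.1).

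**Figure D3:**
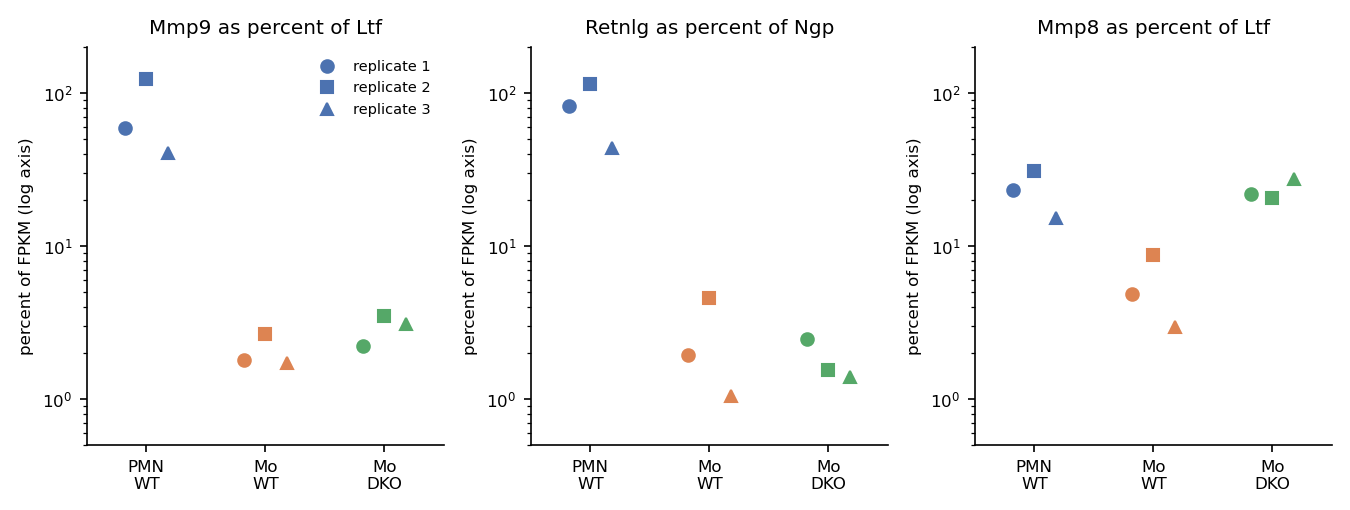
Level of Mmp9 as a percentage of Ltf, of Retnlg as a percentage of Ngp and of Mmp8 as a percentage of Ltf in each of the 9 samples, on log axes, with replicates as points of 3 shapes. Mmp9 is at 40.4% of Ltf or more in PMN-MDSCs and at 3.48% or less in both Mo-MDSC groups, and Mmp8 is lowest against Ltf in WT Mo-MDSCs, at 2.98% to 8.72%.

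Other neutrophil genes gave a scale for these levels. The 13 neutrophil genes outside the granule lists stood in WT Mo-MDSCs at a median of 5.86% of their PMN-MDSC level, from 0.466% for Stfa2l1 to 26.9% for 1100001G20Rik. The chemokine receptor Cxcr2 was at 1.66% and the growth factor receptor Csf3r at 5.31%. The 10 granule genes had a median of 52.6%, so that Mmp9 and Retnlg lay near Cxcr2 while Ltf, Ngp, Camp, Lcn2, Cd177 and Itgb2l were above all 13 of these genes. No neutrophil gene was at 0 in all samples of a group. Without S100a8 and S100a9, the summed level of the list was 4216 to 6260 FPKM in PMN-MDSCs and 319 to 705 FPKM in WT Mo-MDSCs. The part that PMN-MDSCs among the purified Mo-MDSCs had in these values was not tested.

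**Figure D4:**
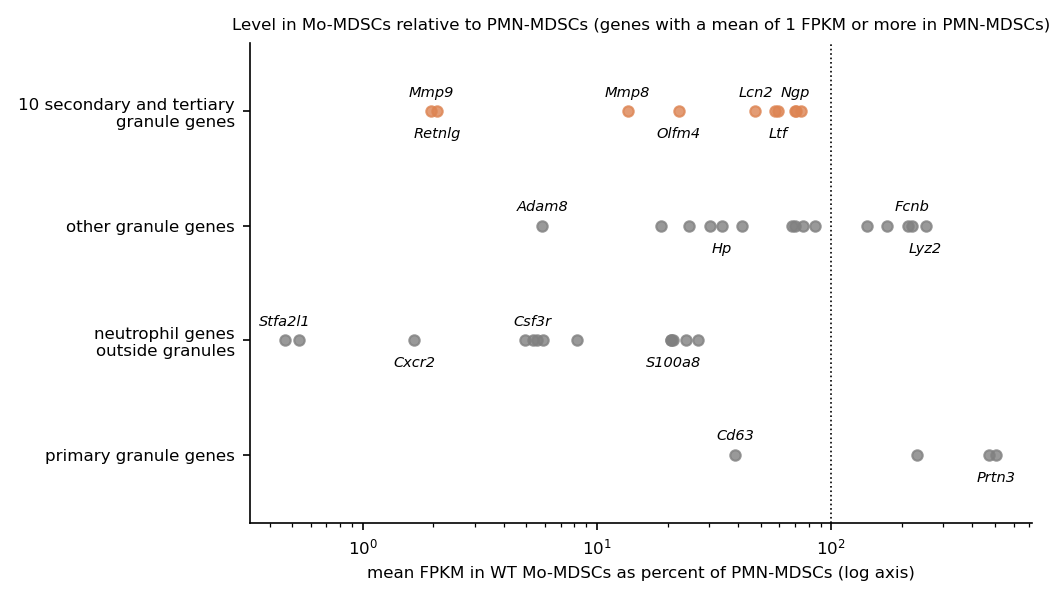
Mean level in WT Mo-MDSCs as a percentage of that in PMN-MDSCs, on a log axis, for each gene of 4 lists with a mean of at least 1 FPKM in PMN-MDSCs, with some genes named. The granule genes split into Mmp9 and Retnlg near 2%, Mmp8 and Olfm4 at 13.5% and 22.3%, and 6 genes above 47%, whereas the neutrophil genes reach 26.9% at most.

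Further granule genes did not move as one. Of 16 other secondary, tertiary and shared granule genes 15 were tested, and 9 were lower and 3 higher in the Mo-MDSCs at an adjusted p-value below 0.05, against 20.6% and 18.5% of all genes. Those lower included Adam8, a surface metalloproteinase, at 5.84% of the PMN-MDSC level, Mmp25, a membrane-anchored metalloproteinase, at 18.8%, and Hp, haptoglobin, at 34.2%. The 3 higher were Lyz2 (253%), the lysozyme shared by monocytes and neutrophils, Cybb (173%), the catalytic subunit of the phagocyte oxidase, and Stom (213%). Of 7 primary granule genes 5 were tested. The serine proteases Elane and Prtn3 were higher in WT Mo-MDSCs, at 471% and 507% of low PMN-MDSC levels of 1.06 and 3.63 FPKM, and Cd63, a membrane protein of granules and lysosomes, was lower, at 38.9%. Of 10 transcription factors of granulocyte differentiation, Cebpd, Mxd1 and Sfpi1 were lower and Cebpa and Runx1 higher. Cebpe was at 37.0, 24.2 and 75.2 FPKM in PMN-MDSCs and 29.0, 23.0 and 63.1 FPKM in WT Mo-MDSCs, lower within each replicate number. Its log2 difference was -0.22 (standard error 0.491, adjusted p = 0.748, and 0.0284 with the replicate block, limma). With the block, 10 of the 15 other granule genes were lower and 5 higher, 1 of the 5 primary granule genes lower and 4 higher, and 5 of the 10 transcription factors lower and 2 higher, against 29.7% lower and 27.6% higher of all genes.

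The second comparison asked how the granule genes stood in Mo-MDSCs of p16/p21-DKO mice. Their levels were lower than in WT Mo-MDSCs for 9 of the 10 genes and higher for Mmp8, but 0 of 10 passed an adjusted p-value below 0.05 in either direction with limma, where 0.0873% of the 11451 genes tested were lower and 0.166% higher. At an unadjusted p-value below 0.05, 7 genes were lower, against 9.74% of all genes, and 1 was higher, against 5.27%. The gene-by-gene model without moderated variances called 0 of all genes, and so could not bear on these 10. In 5 genes (Ltf, Ngp, Lcn2, Itgb2l and Retnlg) all DKO samples lay below all WT samples, against 12.9% of all genes, and in 1 (Mmp8) every DKO sample was above, against 7.96%. The median log2 difference of the 10 genes was -1.27, and that of all genes -0.02. Summed over the 10 genes, the level was 7910, 5477 and 17184 FPKM in WT and 3468, 5243 and 2448 FPKM in DKO Mo-MDSCs.

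Ltf, Ngp, Camp and Lcn2 were at 33.9% to 38.6% of their WT means, and Olfm4 at 67.8%. Ltf was at 348, 544 and 261 FPKM in DKO Mo-MDSCs, a mean of 385 ± 145 FPKM (SD, n = 3). The highest DKO sample, replicate 2, was just under the lowest WT sample at 575 FPKM. The log2 difference was -1.41 (standard error 0.430, unadjusted p = 0.0119, adjusted p = 0.222, limma). Ngp was at 1358, 2155 and 996 FPKM, and Lcn2 at 546, 890 and 386 FPKM. In both, replicate 2 again came close to the lowest WT sample without reaching it. The log2 differences were -1.45 for Ngp (standard error 0.445, adjusted p = 0.223, limma) and -1.42 for Lcn2 (standard error 0.441, adjusted p = 0.228). Camp, at 995, 1342 and 618 FPKM, overlapped with WT by a narrow margin, since DKO replicate 2 was level with WT replicate 2 at 1341 FPKM. Its log2 difference was -1.27 (standard error 0.439, adjusted p = 0.257, limma). Olfm4 was at 5.90, 6.58 and 3.24 FPKM and overlapped with WT, with a log2 difference of -0.56 (95% interval -1.29 to 0.16, adjusted p = 0.431).

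The surface genes and Retnlg had the same sign. Itgb2l was at 16.3, 23.0 and 11.5 FPKM in DKO Mo-MDSCs, all below the WT samples, a log2 difference of -1.28 (standard error 0.383, adjusted p = 0.217, limma). Cd177 was at 81.5, 118 and 79.0 FPKM, and replicate 2 was above the lowest WT sample (log2 difference -0.89, standard error 0.338, adjusted p = 0.289). Retnlg was at 33.6, 33.3 and 13.9 FPKM, all well under the lowest WT sample of 64.6 FPKM. It had the smallest adjusted p-value of the 10, 0.128 from limma, with a log2 difference of -1.71 (standard error 0.347).

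The proteases differed from each other. Mmp8 was at 76.0, 112 and 71.7 FPKM in DKO Mo-MDSCs, 176% of the WT mean, with every DKO sample above the highest WT sample of 55.2 FPKM. The log2 difference was 0.79 (95% interval 0.37 to 1.21, unadjusted p = 0.00261, adjusted p = 0.156, limma). Mmp9 was at 7.72, 18.9 and 8.00 FPKM and overlapped with WT, with a log2 difference of -0.89 (95% interval -1.82 to 0.04, adjusted p = 0.349). Relative to Ltf of the same sample, Mmp8 was at 2.98% to 8.72% in WT and at 20.6% to 27.5% in DKO Mo-MDSCs, with a difference of the ratio of 2.2 on the log2 scale and no overlap (exact permutation p = 0.1, the smallest possible). The ratio of Lcn2 to Ltf differed by -0.01 (exact permutation p = 1), and that of Ngp to Camp by -0.18, without overlap (exact permutation p = 0.1). In PMN-MDSCs Mmp8 was at 15.2% to 31.1% of Ltf. Mmp13, another collagenase gene of the Mmp8 cluster, was low, at 1.76, 1.57 and 1.17 FPKM in WT and 4.37, 3.34 and 2.99 FPKM in DKO Mo-MDSCs (adjusted p = 0.0944, limma). Mmp27, the neighbour of Mmp8, overlapped, at 2.99, 3.13 and 3.22 and at 4.58, 3.16 and 3.10 FPKM (adjusted p = 0.640).

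All 10 genes were lower in every DKO Mo-MDSC sample than in every PMN-MDSC sample, against 27.1% of all genes. This contrast joins a difference of subset and one of genotype, and was not tested.

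The spread within the groups had a common order. In PMN-MDSCs replicate 3 was the highest sample for 10 of 10 genes and replicate 2 the lowest for 9, and in WT Mo-MDSCs replicate 3 was the highest for 9 and replicate 2 the lowest for 8. In DKO Mo-MDSCs replicate 2 was highest for 9 and replicate 3 lowest for 9. The total FPKM of the samples had the same highest and lowest replicates. For replicates 1 to 3 it was 745408, 711675 and 916642 in PMN-MDSCs and 569373, 549976 and 618250 in WT Mo-MDSCs. In DKO Mo-MDSCs it was 528987, 534354 and 494252. The totals include the 10 genes and other neutrophil genes, so they are not independent of this order. S100a8 alone was at 55610, 41819 and 100402 FPKM in PMN-MDSCs. The share of all genes with this order was not counted. The ratio of the highest to the lowest sample had a median over the genes of 3.11 in PMN-MDSCs, 2.74 in WT and 2.12 in DKO Mo-MDSCs. The median standard error of the 10 genes for DKO against WT was 0.392 on the log2 scale, against 0.122 for all genes tested. The 10 genes were listed with their variation between Mo-MDSC samples known, so this larger spread is a description only. Without WT Mo-MDSC replicate 3, the log2 difference was -0.94 for Ltf, -0.80 for Camp and -0.50 for Cd177.

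**Figure D5:**
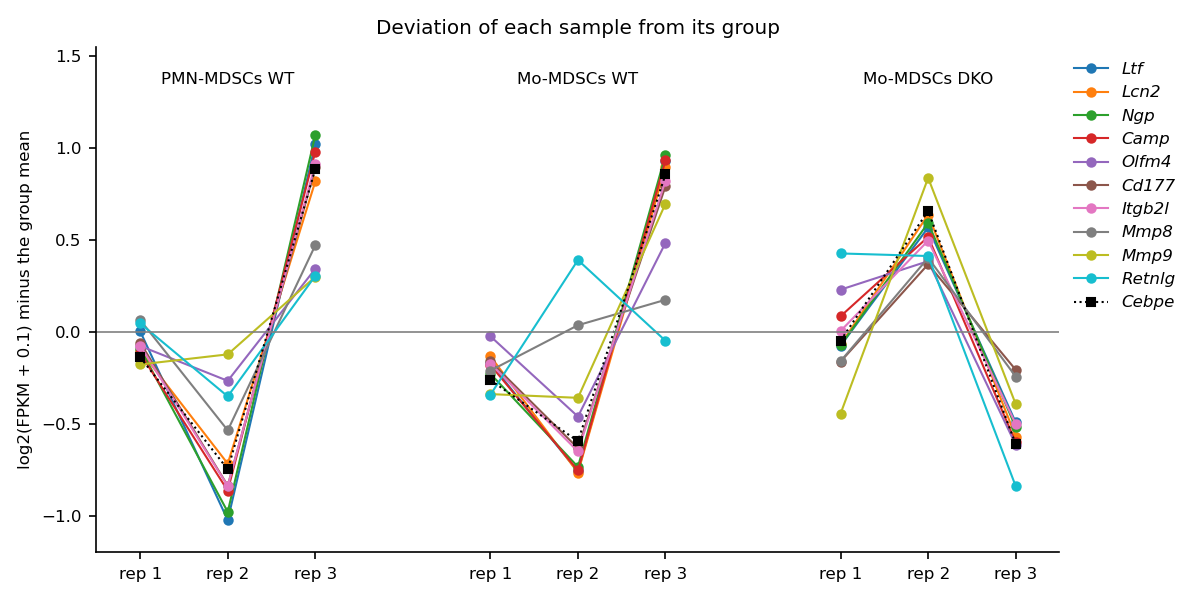
Deviation of each sample from its group mean on the scale of log2(FPKM + 0.1), for the 10 granule genes and Cebpe (dotted), in the 3 groups. Most lines run together, with replicate 3 above its group in both WT subsets and replicate 2 above its group in DKO Mo-MDSCs, whereas Retnlg and Mmp8 leave the common course in WT Mo-MDSCs.

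The genes most like the granule genes were sought across the 6 Mo-MDSC samples, by Pearson's r with the mean log2(FPKM + 0.1) of the 10 genes, over 11450 genes. This is a description of 6 samples that span the WT and DKO groups. The 5 highest outside the list were Dhrs7 (r = 0.999), Cebpe (0.998), Rab24 (0.998), Rab3d (0.998) and Ilk (0.997). Cebpe ranked second of all genes. It was at 15.1, 24.7 and 10.2 FPKM in DKO Mo-MDSCs, with replicate 2 above the lowest WT sample, and its log2 difference from WT was -1.15 (standard error 0.419, unadjusted p = 0.0264, adjusted p = 0.277, limma). Dhrs7 and Ilk varied little by comparison, from 25.0 to 44.1 FPKM and from 74.2 to 94.6 FPKM. Of the 10 granule genes, r with their own mean was 0.992 to 0.995 for Ltf, Ngp, Camp, Lcn2 and Itgb2l, 0.965 for Cd177, 0.941 for Mmp9, 0.934 for Olfm4, 0.773 for Retnlg and -0.388 for Mmp8.

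Further lists were counted for DKO against WT Mo-MDSCs, and limma called 0 genes in each at an adjusted p-value below 0.05. At an unadjusted p-value below 0.05, 9 of 15 other granule genes were lower and 2 higher, where 9.74% and 5.27% of all genes were. Among those lower were Mmp25 (log2 difference -1.49), Fcnb, a ficolin (-1.37), and Hp (-0.95). The 2 higher were Adam8 (0.68) and Slc11a1 (0.39), a metal transporter of phagosomes and granules. Of the 5 primary granule genes tested Elane (-1.66) and Prtn3 (-1.54) were lower at that threshold, and of the 10 transcription factors Cebpe, Cux1 and Sfpi1 were.

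Levels of neutrophil, monocyte and B-cell genes are given beside these results. The summed level of the 13 neutrophil genes was 13719 to 48542 FPKM in WT and 5270 to 13240 FPKM in DKO Mo-MDSCs. Without S100a8 and S100a9 the sums overlapped, at 319 to 705 and 227 to 381 FPKM. Of 11 neutrophil genes tested 5 were lower and 1 (Fpr2) higher at an unadjusted p-value below 0.05 (9.74% and 5.27% of all genes). The 10 monocyte genes summed to 2490 to 2813 FPKM in WT and 2013 to 2225 FPKM in DKO Mo-MDSCs, and 6 of them were lower at that threshold. B-cell genes summed to 969 to 1098 and 1038 to 1302 FPKM. No gene of these 3 lists was at 0 in a whole group, and their part in the differences of the granule genes was not tested.

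The genes between Camp and Ltf on chromosome 9 were counted for both comparisons. For DKO against WT Mo-MDSCs 13 of them were tested. Their log2 differences ran from -0.38 (Kif9) to 0.26 (Ptpn23), with a median of 0.07, and those of Camp, Ngp and Ltf were -1.27, -1.45 and -1.41, while limma called none of the neighbours or of these 3 genes at an adjusted p-value below 0.05. Between WT Mo-MDSCs and PMN-MDSCs 12 neighbours were tested, and 4 were called lower and 3 higher, against 20.6% and 18.5% of all genes. Their log2 differences ran from -1.50 (Nbeal2) to 1.42 (Als2cl). Those of Camp, Ngp and Ltf were -0.40, -0.45 and -0.70, and none of these 3 was called. With the replicate block 6 neighbours were lower and 4 higher, against 29.7% and 27.6% of all genes. All 3 granule genes were lower with the block.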

How the data were processed

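Splenic MDSCs of SCT-bearing mice were sequenced by the authors from stranded mRNA libraries as single-end reads. The authors mapped the reads to mm10 with TopHat2 2.0.13, Bowtie2 2.2.3 and SAMtools 0.1.19 and deposited FPKM values from Cuffnorm 2.2.1, for 23284 gene symbols in each of 9 samples. The gene annotation and the library scaling are not given in the sources used here. FPKM values are not counts and keep no total depth, so no count test was run. FPKM calculated per gene symbol cannot show how reads shared by near-identical genes were divided.

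Groups and replicate numbers were taken from the labels. Values were compared as log2(FPKM + 0.1), on which the change of a low gene is understated, in genes that reached 1 FPKM in 3 or more of the 6 samples compared, with limma 3.58.1 (moderated variances with a trend, no covariates) in R 4.3.3. Benjamini-Hochberg adjustment covered all genes tested. The median standard error over all genes was 0.118 on the log2 scale for WT Mo-MDSCs against PMN-MDSCs. Ratios within samples were compared by exact permutation tests that took the samples as unpaired. Python 3.11.15 with pandas 2.3.3, numpy 2.4.6, scipy 1.17.1 and matplotlib 3.10.9 was used. The fit was tested on simulated data.

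The numbers were taken to pair PMN-MDSCs and WT Mo-MDSCs by the data: deviations from the group means correlated across genes at 0.294, 0.483 and 0.200 for the 3 same-numbered pairs. The library labels put replicate 1 in a lower run of numbers than replicates 2 and 3, in all 3 groups. Within each replicate number the labels of the 3 groups are consecutive, so they do not set DKO samples apart from the WT samples of that number. The 10 genes, the lists (100 of 102 genes matched to the tables, after leaving out 1 gene that is not reported here) and the tests were chosen with earlier results of these data known. Genes named are the 10 members, those that a count of calls turned on, examples from the lists, the 5 genes most like the members' mean, their neighbours on chromosome 9 and the deleted genes. Mmp13 and Mmp27, the examples and the pairs of genes for ratios were picked after their values were seen. Alternatives were pseudocounts of 1 and 0.01, no filter, a filter of 1 FPKM in every sample, a joint fit of all 9 samples, no variance moderation, quantile normalization, median scaling, the replicate block, replicates 2 and 3 only, and leaving out each sample.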

Additional observations from a re-analysis of the deposited data

How the results depend on the processing

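Between PMN-MDSCs and WT Mo-MDSCs, the number of granule genes called lower was 4 under every alternative except the replicate block, which gave 10, and leaving out single samples, which gave 4 to 5, with Lcn2 added without WT Mo-MDSC replicate 3. Without PMN-MDSC replicate 3, the log2 differences of Ngp and Camp turned to 0.0901 and 0.0900, within ranges over single samples left out that began at -0.935 and -0.867. Leaving out single samples moved Ltf between -1.21 and -0.19, Cd177 between -0.88 and -0.01, Itgb2l between -1.17 and -0.29 and Lcn2 between -1.55 and -0.69. Quantile normalization gave -0.37 for Ltf, -0.15 for Ngp, -0.05 for Camp, -0.76 for Lcn2, -0.07 for Cd177 and -0.54 for Itgb2l. It was not combined with the replicate block. Median scaling, also without the block, gave -0.70 for Ltf, -0.44 for Ngp, -0.40 for Camp, -1.10 for Lcn2, -0.46 for Cd177 and -0.75 for Itgb2l. All other signs were kept under the alternatives tried. The block also raised the genes called over the whole table from 2371 to 3417 lower and from 2121 to 3167 higher, and replicates 2 and 3 only gave 1279 higher.

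For DKO against WT Mo-MDSCs 0 of the 10 granule genes were called under any alternative tried, all 160 values kept their sign, and the smallest adjusted p-value was 0.0728, for Retnlg with all 9 samples in 1 fit. Over the whole table the calls went from 10 lower and 19 higher to 0 and 0 without variance moderation, 26 and 25 with all 9 samples, 4 and 9 without the filter, 4 and 8 with replicates 2 and 3 only, and 1 to 9 and 6 to 16 without single samples. The replicate numbers were not taken to pair these groups, on correlations of 0.348, 0.226 and -0.0700, although the library labels leave such a pairing possible. The block gave 6 lower and 14 higher with none of the 10. Fits with 1 sample fewer assume that the smaller group varies like the other. The cause of these changes was not tested. The read depth behind each value is unknown, so no counting error was given.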
